A study of Arabidopsis thaliana with 83 samples.

Results

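Aux/IAA proteins are nuclear repressors of auxin signalling, and the genes described here are 7 members of that family, IAA18, IAA20, IAA29, IAA30, IAA31, IAA33 and IAA34. Whether the array holds probe sets for other members, under no gene name or under several, was not examined. They were taken as the Aux/IAA genes that the probe annotation lists alone on a probe set of the ATH1 array, also where the signal was low, and each had 1 such probe set, out of 13356 genes named in this way in the whole series. The loci were AT1G51950 (IAA18), AT2G46990 (IAA20), AT4G32280 (IAA29), AT3G62100 (IAA30), AT3G17600 (IAA31), AT5G57420 (IAA33) and AT1G15050 (IAA34).

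Arabidopsis thaliana seedlings of the natural accessions Col-0, C24, Sha, Bay-0, Bur-0, Bl-1 and Fei-0, 7 in all, with Sha spelled Shakdara in the labels, were profiled whole at 0 h, 30 min, 1 h and 3 h of auxin treatment on 83 arrays, with 3 arrays in each of the 28 groups except Fei-0 at 3 h, which had 2. All groups shared the same culture: seed kept for 5 days at 4 °C in the dark, then grown for 7 days at 22 °C in shaken liquid medium under constant white light, with a yellow filter over the light for the last 24 h to slow the breakdown of auxin. The labels give Bay-0 as the accession and also call it a recombinant inbred line, and what is said of Bay-0 rests on the accession label. Neither an auxin dose nor a mock treatment for the 3 treated times could be taken from the labels. Serial numbers in the titles run by accession and then by time, so a processing order cannot be told apart from either. In a whole seedling a change in the number of cells that express a gene and a change in RNA per cell cannot be told apart.

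In the textbook pathway, a canonical Aux/IAA protein binds an auxin response factor and recruits a TOPLESS co-repressor, and auxin joins the repressor to a receptor of the TIR1/AFB family through a short degron, after which the repressor is degraded. Many Aux/IAA genes are themselves switched on by auxin, which closes a negative feedback loop. Non-canonical members, among them IAA20, IAA30, IAA31, IAA33 and IAA34, lack all or a conserved stretch of that degron and are longer lived, so that their abundance is thought to depend more on transcription. IAA18 has the degron, and stabilising mutations in it alter root and embryo development. IAA29 is known for growth in shade and warmth.

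Deposited signals were on one scale, with a median per array between 38.0 and 43.2, and arrays of a group correlated at r = 0.975 to 0.993 across probe sets, which are not independent replicates. GAPDH control probes gave group means of 1.41 to 2.99 for the signal at the 3' end over that at the 5' end, a sign of RNA quality. Markers of both organs were measured, with mean signals over all arrays of 3320 for RCA and 1723 for LHCB4.2 (photosynthetic shoot tissue) and of 48.2 for EXPA7 and 39.0 for EXPA18 (root hairs). These were the measured markers, 2 of 7 listed for shoot and 2 of 9 for root, and none was at 0 on any array. The summed shoot signal ranged over arrays from 2668 to 8534 at 0 h, 3462 to 8155 at 30 min, 2487 to 7155 at 1 h and 2299 to 5247 at 3 h. The summed root signal ranged from 30.1 to 95.5 at 0 h, 48.1 to 96.9 at 30 min, 28.5 to 202 at 1 h and 38.9 to 361 at 3 h. On the log2 scale the change in EXPA7 was 0.35 ± 0.08 by 30 min, 0.84 ± 0.08 by 1 h, then 0.99 ± 0.08 by 3 h (SE, limma adjusted p = 0.000937, 1.18e-13 and 2.31e-16). EXPA18 was higher at both 1 h (0.34 ± 0.07) and 3 h (0.47 ± 0.07; adjusted p = 7.74e-05 and 6.89e-08). RCA fell by 0.29 ± 0.05 at 3 h (adjusted p = 1.06e-06), and LHCB4.2 fell by 0.61 ± 0.06 at 3 h after a fall by 0.23 ± 0.06 at 1 h (adjusted p = 8.84e-13 and 0.00314). The part of these organ markers in the changes below was not tested.

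Among the 7 genes, IAA29 and IAA30 rose within 30 min in every accession, were highest at 1 h and had fallen again by 3 h. IAA20 and IAA33, whose signals were mostly under 16, were also highest at 1 h, by smaller changes, and IAA31 was slightly higher at 1 h and 3 h. IAA18 and IAA34 did not pass the test against 0 h at any time. Changes are given as log2(signal + 16) with the standard error of a limma model over all arrays, and a change was called when its Benjamini-Hochberg adjusted p over 22746 probe sets was under 0.05 and its size at least 2-fold, which is 1 on this scale. Adding 16 to each signal understates the change of dim probe sets. Of all probe sets 0.426% were called higher at 30 min, 0.567% at 1 h and 0.488% at 3 h in the mean over accessions, against 2, 2 and 1 of the 7 genes. At any size 7.67%, 10.8% and 15.8% of probe sets were higher past the adjusted p, against 3, 5 and 3 of the 7. The median over the 7 genes was 0.06, 0.32 and 0.13 at these times, and that over all probe sets -0.02, -0.01 and 0.00.

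**Figure D1:**
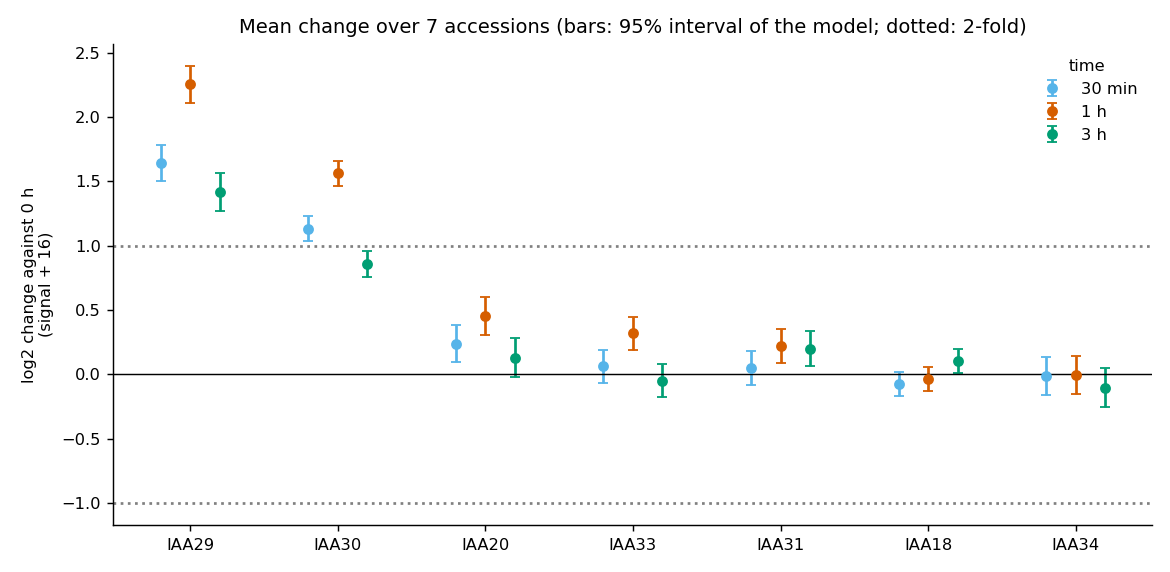
Mean log2 change over the 7 accessions against 0 h (y axis, signal + 16) for each of the 7 genes (x axis) at 30 min, 1 h and 3 h, with bars for the 95% interval of the model and dotted lines at 2-fold. IAA29 and IAA30 lie highest, at 2.25 and 1.56 at 1 h, IAA20 and IAA33 peak at 0.46 and 0.32, and IAA18 and IAA34 lie around 0.

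IAA29, linked to growth in shade and warmth, had the largest mean response of the 7. Over the 21 arrays at 0 h its signal had a lowest value of 0.497, a median of 13.2 and a highest of 33.1. At 30 min the same 3 values were 23.5, 79.5 and 147, at 1 h 77.1, 114 and 234, and over the 20 arrays at 3 h 28.9, 52.8 and 130. Pooled over accessions, every array at 1 h lay above every array at 0 h, and the share of all probe sets that did so was not computed. The mean of the accession means was 14.3 ± 8.93 at 0 h, 80.7 ± 28.3 at 30 min, 128 ± 41.0 at 1 h and 67.3 ± 34.3 at 3 h (SD over 7 accessions).

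At the level of single accessions, IAA29 arrays of each time were compared with those of the same accession at 0 h. In Bay-0 the signals were 102, 88.1 and 77.1 at 1 h, against 0.666, 0.497 and 7.04 at 0 h. In Bl-1 they were 125, 126 and 143 at 1 h, against 10.5, 13.2 and 19.2 at 0 h. In Bur-0 they were 234, 194 and 188 at 1 h, against 33.1, 29.2 and 23.2 at 0 h. Bur-0 was thus high at both times and Bay-0 low at both. In C24 the values were 181, 164 and 110 at 1 h, against 22.6, 20.7 and 15.6 at 0 h. In Col-0 they were 114, 77.5 and 112 at 1 h, against 7.86, 11.8 and 10.1 at 0 h. The arrays of the 2 times did not overlap in either accession. Fei-0 had 130, 112 and 129 at 1 h, against 20.6, 16.2 and 20.9 at 0 h. Sha had 107, 80.9 and 88.7 at 1 h, against 10.5, 1.54 and 5.70 at 0 h. All arrays at 30 min, at 1 h and at 3 h lay above all arrays at 0 h in each of the 7 accessions, which held for 0.686%, 1.02% and 0.932% of all probe sets at these times.

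In the limma model IAA29 rose by 1.64 ± 0.07 at 30 min, 2.25 ± 0.07 at 1 h and 1.42 ± 0.07 at 3 h in the mean over accessions (SE, adjusted p = 7.65e-30, 1.36e-37 and 3.86e-26). It was called in 7 of 7 accessions at each time, as were 0.185%, 0.224% and 0.167% of all probe sets. At 30 min the response was lowest in Bur-0 (1.23) and highest in Col-0 (2.02). At 1 h the extremes were Fei-0 (1.99) and Bay-0 (2.50), and at 3 h Bl-1 (1.01) and C24 (1.91). With a pseudocount of 64 in place of 16 it was 0.85 and 0.71 at 30 min and 3 h, under 2-fold. The Bur-0 call at 30 min rested on 1 array and was 0.91 without replicate 2 at 30 min, and the Bl-1 call at 3 h was lost on leaving out any of 4 arrays, replicates 1 and 2 at 0 h (0.92 and 0.99) and replicates 1 and 2 at 3 h (0.86 and 0.97).

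IAA30, a non-canonical member linked to embryo and root development, was likewise highest at 1 h. At 0 h its lowest, median and highest signals were 3.01, 11.6 and 16.7. At 30 min they were 29.1, 41.7 and 56.1, at 1 h 42.5, 60.1 and 81.8, and at 3 h 19.1, 31.2 and 49.6. No array of a later time, in any accession, was as low as the highest array at 0 h. The share of all probe sets apart in this pooled way was not computed. Within each of the 7 accessions, 0.686%, 1.02% and 0.932% of probe sets had all arrays at 30 min, 1 h and 3 h above those at 0 h. The mean of the accession means was 10.9 ± 3.24 at 0 h, 42.9 ± 8.00 at 30 min, 63.5 ± 11.0 at 1 h and 32.9 ± 6.63 at 3 h (SD over 7 accessions).

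IAA30 arrays were then set beside those of the same accession. In Bay-0 the signals were 57.8, 51.7 and 52.9 at 1 h, against 3.01, 4.2 and 8.40 at 0 h. In Bl-1 they were 68.4, 64.6 and 58.1 at 1 h, against 11.8, 11.6 and 12.2 at 0 h. In Bur-0 they were 69.8, 80.7 and 80.2 at 1 h, against 13.6, 3.65 and 12.0 at 0 h. The second Bur-0 array at 0 h was the lowest of its group. In C24 the values were 48.5, 50.2 and 58.1 at 1 h, against 8.37, 8.29 and 10.8 at 0 h. In Col-0 they were 67.9, 80.0 and 78.6 at 1 h, against 10.6, 11.2 and 12.5 at 0 h. Col-0 and Bur-0 had the highest group means of IAA30 at 1 h, 75.5 ± 6.59 and 76.9 ± 6.15 (SD, n = 3 each). Fei-0 had 57.4, 81.8 and 72.2 at 1 h, against 15.1, 15.0 and 10.7 at 0 h. Sha had 42.5, 60.1 and 52.9 at 1 h, against 14.7, 16.7 and 13.9 at 0 h, the lowest mean at 1 h and the highest at 0 h of the 7 accessions.

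The mean response of IAA30 was 1.13 ± 0.05 at 30 min and 1.56 ± 0.05 at 1 h, both called, and 0.86 ± 0.05 at 3 h, past the adjusted p but under 2-fold (SE, adjusted p = 2.80e-30, 3.50e-38 and 1.16e-23). It was called in 6 accessions at 30 min, all but Sha (0.75), in 7 at 1 h and in 2 at 3 h, Bay-0 (1.11) and C24 (1.31), where a single accession called between 0.391% and 1.42% of probe sets higher. At 3 h IAA30 was past the adjusted p in all 7 accessions, and in Fei-0 this was lost without replicate 2 at 3 h (adjusted p = 0.0883). The Bay-0 value at 3 h was 0.99, under 2-fold, without replicate 1 at 3 h, and the Bur-0 value of 0.90 was over 2-fold without replicate 1 at 0 h (1.01) or replicate 3 at 3 h (1.02). With a pseudocount of 64 the mean response was 0.51, 0.76 and 0.37, and with 1 it was 1.96, 2.51 and 1.57, so its size, though not its direction, depended on that choice.

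**Figure D2:**
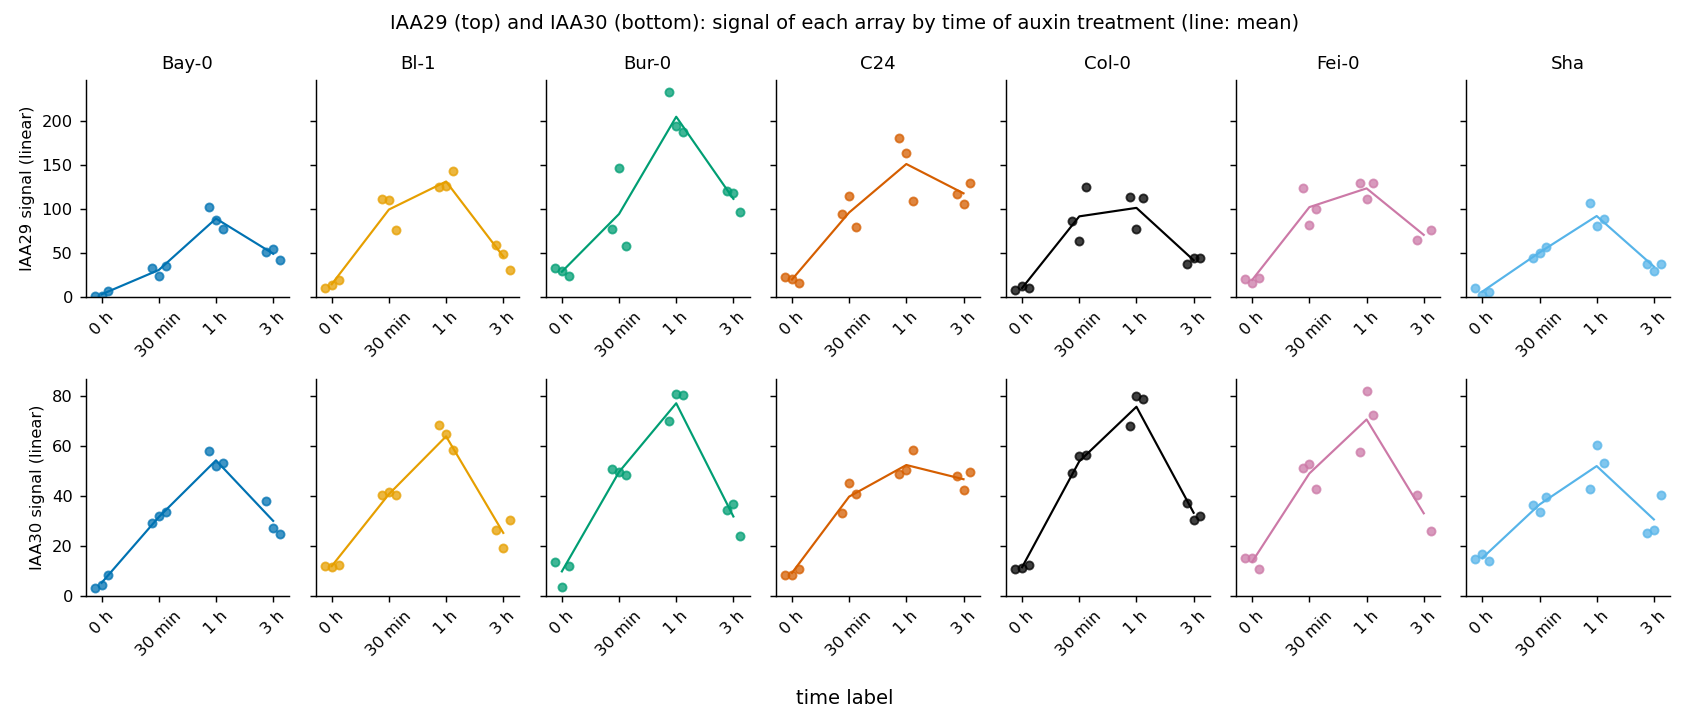
Signal (y axes, linear scale) of IAA29 (top) and IAA30 (bottom) on every array at 0 h, 30 min, 1 h and 3 h (x axes), 1 panel per accession, with a line through the group means. In every panel the arrays of later times lie above those at 0 h, the mean is highest at 1 h, and C24 keeps the highest means at 3 h, 118 for IAA29 and 46.6 for IAA30.

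The other non-canonical members were measured at low signal, and none of the 4 passed a filter that leaves out the dimmest 30% of probe sets. Their signals were under 16, the pseudocount, on 78 of 83 arrays for IAA20, 65 for IAA33, 81 for IAA31 and 81 for IAA34. Detection calls were not used here, so these values do not say on which arrays the transcript was above background. No array was left out for them.

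IAA20, a close relative of IAA30 that acts with it in root and vascular development, had a lowest, median and highest signal of 0.614, 3.28 and 15.1 at 0 h. At 30 min they were 0.871, 8.71 and 15.1, at 1 h 3.21, 12.2 and 22.1, and at 3 h 0.762, 6.70 and 15.4. The median was lowest at 0 h and highest at 1 h, but the ranges overlapped at every time. At 1 h IAA20 was higher by 0.46 ± 0.07 in the mean over accessions, 1.37-fold on the scale of signal + 16 (limma adjusted p = 7.95e-07), and positive in 7 of 7 accessions, as were 4.82% of probe sets. At 30 min it was higher by 0.24 ± 0.07 (adjusted p = 0.0151, 0.0580 in the mean without Bay-0), and at 3 h the change was 0.13 ± 0.07 (adjusted p = 0.198).

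Of the 6824 probe sets of lowest mean, 1.95% were higher at 30 min past the adjusted p at any size, 2.64% at 1 h and 3.25% at 3 h. IAA20 passed at 1 h in each of 88 alternative fits, with an adjusted p of at most 2.99e-05. In single accessions it passed at 1 h in Bay-0 alone (0.72 ± 0.19, adjusted p = 0.0130), where 3.66% of probe sets were higher, with signals of 20.3, 12.4 and 14.0 at 1 h, against 1.31, 7.85 and 0.875 at 0 h. That test was lost without replicate 1 or 3 at 0 h or replicate 1 at 1 h (adjusted p up to 0.0943). Its arrays at 1 h lay wholly above those at 0 h in Bay-0 and Fei-0 alone, and the times overlapped in the other accessions. The share of all probe sets apart in as few accessions was not computed. Its size moved with the pseudocount, 1.48 with 1 and called, and 0.15 with 64. IAA20 and IAA30 are close paralogs, their group means of log2 signal correlated at r = 0.68 over 28 groups that share the same arrays, and the part of cross-hybridisation in the IAA20 signal was not tested.

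IAA33, a non-canonical member that in roots has been described as binding response factors without being degraded by auxin, rose at 1 h as well. Its lowest, median and highest signals were 1.34, 9.98 and 16.9 at 0 h and 1.89, 12.0 and 17.8 at 30 min. At 1 h they were 5.60, 16.7 and 26.7, and at 3 h 1.60, 9.08 and 17.6. The 1 h arrays stood above those of the other times in their median, with overlapping ranges. The mean response was 0.32 ± 0.06 at 1 h (limma adjusted p = 6.15e-05, and at most 0.00168 in 88 alternative fits). The change was 0.06 ± 0.06 at 30 min and -0.05 ± 0.07 at 3 h (adjusted p = 0.606 and 0.640).

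By accession, every IAA33 array at 1 h lay above every array at 0 h in 5 of 7, all but Fei-0 and Sha, and 4.84% of probe sets did so in at least 4 accessions. In Bur-0 the values were 13.3, 26.7 and 12.7 at 1 h, against 9.17, 1.34 and 9.35 at 0 h, the 1 accession where IAA33 passed the test by itself (0.56 ± 0.17, adjusted p = 0.0136), beside 7.98% of probe sets. It did not pass without replicate 2 at 1 h (adjusted p = 0.200) or replicate 2 at 0 h. In Fei-0 the arrays spread from 5.60 to 25.0 at 1 h, against 6.22 to 13.2 at 0 h. In Sha they ran from 11.6 to 17.9 at 1 h, against 13.1 to 16.9 at 0 h, with overlapping arrays (adjusted p = 0.999). A moderated F test did not find that the 1 h response of IAA33 differed between accessions (range 0.57, adjusted p = 0.545).

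IAA31, a non-canonical member whose overexpression disturbs root gravitropism, had a lowest, median and highest signal of 0.203, 4.10 and 14.6 at 0 h and 0.197, 5.57 and 10.7 at 30 min. The values were 2.41, 7.56 and 14.3 at 1 h and 0.497, 6.90 and 19.1 at 3 h. It was higher by 0.22 ± 0.07 at 1 h and 0.20 ± 0.07 at 3 h (limma adjusted p = 0.0103 and 0.0159), in 6 and 5 of 7 accessions. In the mean without Bay-0, the 1 accession left out as a whole, the adjusted p was 0.0772 and 0.0574. At 30 min the change was 0.05 ± 0.07 (adjusted p = 0.728).

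IAA34, a non-canonical member described in the apical hook as a target of the kinase TMK1, showed lowest, median and highest signals of 0.644, 7.56 and 17.5 at 0 h and 0.655, 6.57 and 16.8 at 30 min. The values were 0.727, 5.79 and 12.2 at 1 h and 0.774, 3.97 and 15.5 at 3 h. Its mean response was -0.01 ± 0.07 at 30 min, -0.01 ± 0.07 at 1 h and -0.10 ± 0.08 at 3 h (limma adjusted p = 0.944, 0.971 and 0.334). The 95% interval at 1 h ran from -0.16 to 0.14. From the median of 7.56 at 0 h, a fall to 0 would stay under 2-fold on the scale of signal + 16. The interval was therefore not set against a 2-fold change.

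**Figure D3:**
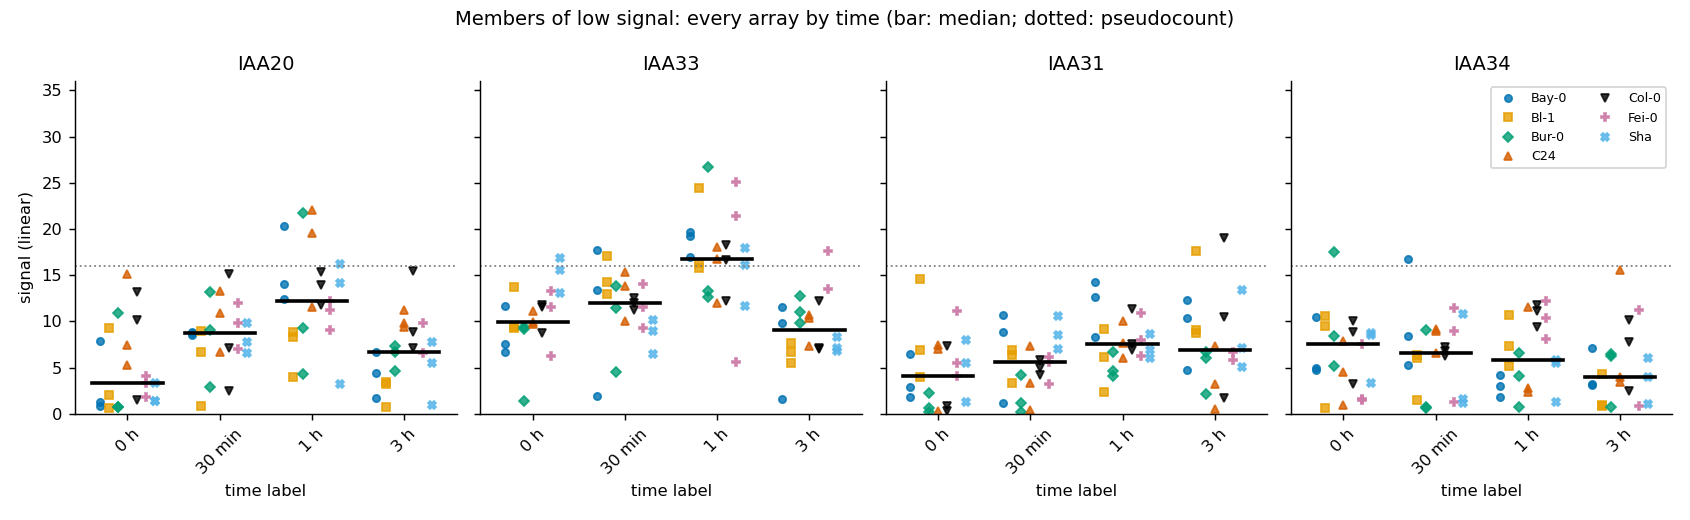
Signal (y axes, linear scale) of IAA20, IAA33, IAA31 and IAA34 on every array at 0 h, 30 min, 1 h and 3 h (x axes), with a symbol per accession, a bar at the median of each time and a dotted line at the pseudocount of 16. The median is highest at 1 h for IAA20 (12.2) and IAA33 (16.7), and most arrays of IAA31 and IAA34 lie under the dotted line at every time.

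IAA18, which carries the degron, was measured well above the pseudocount on all arrays and moved little. Its lowest, median and highest signals were 70.1, 113 and 167 at 0 h and 73.4, 98.4 and 142 at 30 min. At 1 h they were 79.0, 103 and 143, and at 3 h 78.7, 107 and 189. The 4 ranges overlapped for most of their width. The mean response was -0.07 ± 0.05, -0.03 ± 0.05 and 0.10 ± 0.05 at 30 min, 1 h and 3 h (limma adjusted p = 0.334, 0.677 and 0.0879), with a 95% interval at 1 h of -0.13 to 0.06.

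The study's later times also show how long the changes lasted, through the step between 30 min and 1 h and the later one between 1 h and 3 h, in the same model. From 30 min to 1 h IAA29 gained a further 0.61 ± 0.07, IAA30 0.43 ± 0.05, IAA33 0.26 ± 0.06 and IAA20 0.22 ± 0.07 (adjusted p = 4.98e-10, 1.55e-10, 0.00241 and 0.0327). These are 4 of the 7 genes, where 8.4% of probe sets were higher past the adjusted p at any size. The IAA20 step passed in 75 of 88 alternative fits. It was lost without Bay-0 and on leaving out certain single arrays, at least 1 in each of the 7 accessions, and its adjusted p was 0.152 with a pseudocount of 1. From 1 h to 3 h IAA29 fell by 0.84 ± 0.07, IAA30 by 0.71 ± 0.05, IAA33 by 0.37 ± 0.07 and IAA20 by 0.33 ± 0.07 (adjusted p = 2.83e-15, 2.04e-19, 5.93e-06 and 0.000423).

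Each of these 4 genes was lower at 3 h than at 1 h in the mean of all 7 accessions, as were 7.28% of probe sets, and 13.1% of probe sets were lower past the adjusted p in the mean. In the mean over accessions no step of the 7 genes reached 2-fold, which 0.0484% of probe sets did upwards between 30 min and 1 h and 0.264% downwards between 1 h and 3 h. IAA18 went the other way, higher by 0.14 ± 0.05 at 3 h than at 1 h (adjusted p = 0.0216), as 13.1% of probe sets were at any size. IAA31 and IAA34 showed -0.02 ± 0.07 and -0.10 ± 0.08 over that step (adjusted p = 0.897 and 0.393).

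Natural variation in how accessions respond to auxin is the topic of the series, so the responses were compared between accessions with a moderated F test at each time. With the pseudocount of 16, no gene of the 7 reached both the adjusted p and a range of 1 on the log2 scale. Of all probe sets 6.77%, 5.46% and 8.38% did so at 30 min, 1 h and 3 h. With a pseudocount of 1, some of the 7 genes reached both at each of these times. So did 2262, 1715 and 2615 of the 22746 probe sets with that pseudocount. Adding 16 lessens a response most where the signal at 0 h is low. The mean signal of IAA29 went from 2.73 at 0 h to 30.5 at 30 min in Bay-0, and from 28.5 to 94.4 in Bur-0. Its responses in the model were 1.32 and 1.23. At any range and with the pseudocount of 16, IAA30 passed at 1 h, with Sha lowest (1.12) and Bur-0 highest (1.87), a range of 0.75 (adjusted p = 0.0252). It also passed at 3 h, with Bl-1 lowest (0.55) and C24 highest (1.31), a range of 0.76 (adjusted p = 0.00415). IAA29 passed at 3 h, with the same accessions at the ends and a range of 0.90 (adjusted p = 0.0391). Shares of 20.2%, 14.8% and 22% of all probe sets passed at any range.

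The difference in IAA30 at 1 h was lost on leaving out any of 3 arrays, Bur-0 replicate 2 at 0 h, Sha replicate 2 at 0 h or Sha replicate 1 at 1 h, the last with an adjusted p of 0.105. The difference in IAA30 at 3 h held in all 88 alternative fits (adjusted p of at most 0.0151), and that in IAA29 held in 74 of 88. It was lost on leaving out any of 14 single arrays of Bay-0, Bl-1, C24, Col-0 and Sha, up to an adjusted p of 0.0831 without C24 replicate 3 at 0 h. The IAA29 responses at 30 min and 1 h had ranges of 0.78 and 0.51 (adjusted p = 0.140 and 0.799). For IAA18, IAA20, IAA31, IAA33 and IAA34 the test was not passed at any time.

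C24 was the accession in which neither IAA29 nor IAA30 passed the test of a fall between 1 h and 3 h. IAA30 in C24 was at 48.0, 42.1 and 49.6 at 3 h, against 48.5, 50.2 and 58.1 at 1 h. IAA29 in C24 was at 118, 106 and 130 at 3 h, against 181, 164 and 110 at 1 h. The C24 arrays of the 2 times overlapped for both genes. In Bur-0, by contrast, IAA30 was at 34.3, 36.7 and 24.0 at 3 h, against 69.8, 80.7 and 80.2 at 1 h. In Col-0 it was at 37.1, 30.4 and 32.0 at 3 h, against 67.9, 80.0 and 78.6 at 1 h. In these 2 accessions no array at 3 h reached the lowest array at 1 h.

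The same held for the IAA30 arrays of the other 4 accessions. How many of all probe sets had arrays at 3 h and 1 h apart in this way was not computed. Bay-0 had 38.1, 27.1 and 24.7 at 3 h, against 57.8, 51.7 and 52.9 at 1 h. Bl-1 had 26.2, 19.1 and 30.2 at 3 h, against 68.4, 64.6 and 58.1 at 1 h. Fei-0 had 40.2 and 25.7 at 3 h, against 57.4, 81.8 and 72.2 at 1 h. Bl-1 had the lowest group mean of IAA30 at 3 h among the 7 accessions. Sha had 25.0, 26.4 and 40.2 at 3 h, against 42.5, 60.1 and 52.9 at 1 h, with the closest approach of the 2 times outside C24.

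The step from 1 h to 3 h was -0.12 ± 0.13 for IAA30 in C24 (limma adjusted p = 0.639) and between -0.97 in Bur-0 and -0.55 in Sha in the other 6 accessions, where it passed the adjusted p in each. For IAA29 it was -0.30 ± 0.19 in C24 (adjusted p = 0.367) and between -1.28 in Bl-1 and -0.69 in Fei-0 elsewhere, past the adjusted p in each. In Fei-0 (adjusted p = 0.0402) that was lost without replicate 1 or 3 at 1 h or replicate 2 or 3 at 3 h, up to an adjusted p of 0.259, and with a pseudocount of 1 (0.270). An F test of the difference in this step, chosen after these values were seen, passed for IAA30 (range 0.85, adjusted p = 0.00493) and not for IAA29 (range 0.98, adjusted p = 0.138), where 5.52% of probe sets passed at any range and 2.74% with a range of at least 1. With a pseudocount of 1 the IAA30 test had an adjusted p of 0.157. The GAPDH 3'/5' ratio in C24 was 1.8 ± 0.17 at 3 h and 2.99 ± 1.23 at 1 h (SD, n = 3 each), with 1 array of the 1 h group at 4.38. In Bur-0 it was 1.93 ± 0.27 at 3 h and 2.67 ± 0.30 at 1 h, and in Bl-1 it was 2.52 ± 0.16 at 0 h, 1.67 ± 0.22 at 1 h and 1.65 ± 0.09 at 3 h. Col-0 had 2.92 ± 0.19 at 0 h, the baseline of its responses, against 2.00 ± 0.26 at 30 min, 1.93 ± 0.12 at 1 h and 2.01 ± 0.33 at 3 h. The part of this ratio in the differences between accessions was not tested.

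**Figure D4:**
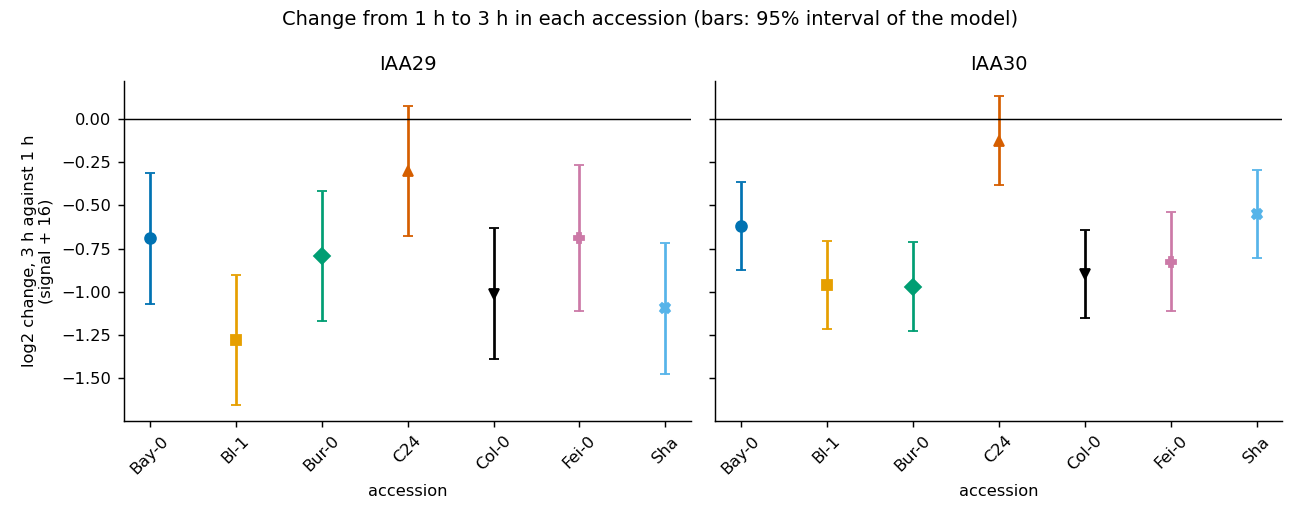
Log2 change (y axis, signal + 16) of IAA29 and IAA30 at 3 h against 1 h in each accession (x axis), with bars for the 95% interval of the model. The interval includes 0 in C24 alone for both genes, at -0.30 and -0.12, and the other accessions lie between -1.28 and -0.55.

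Before treatment the accessions already differed in some of these genes. Of all probe sets 17.3% had a level at 0 h that differed with a range of at least 1, and 61.1% differed at any range, so a difference at 0 h was common. IAA29 was the 1 gene of the 7 past both (range 1.26, limma adjusted p = 1.39e-07), with group means of 2.73 ± 3.73 in Bay-0, 5.90 ± 4.46 in Sha, 9.93 ± 1.98 in Col-0, 14.3 ± 4.45 in Bl-1, 19.2 ± 2.64 in Fei-0, 19.6 ± 3.58 in C24 and 28.5 ± 5.02 in Bur-0 (SD, n = 3 each). Bay-0 minus Bur-0 was -1.26 ± 0.19 (adjusted p = 1.22e-07), a pair in which 33.3% of probe sets differed. Bur-0 minus Sha was 1.04 ± 0.19 (adjusted p = 1.14e-05), beside 27.4% of probe sets, and under 2-fold without Bur-0 replicate 1 (0.96) or Sha replicate 2 (0.89). Neighbours in that order did not differ past the threshold, with adjusted p of 0.478 for Bay-0 minus Sha, 0.338 for Col-0 minus Sha, 0.497 for Bl-1 minus Col-0, 0.449 for Bl-1 minus Fei-0, 0.985 for C24 minus Fei-0 and 0.274 for Bur-0 minus C24.

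IAA18 differed at 0 h as well, though under the range of 1 (range 0.90, adjusted p = 1.16e-06). Sha was lowest at 75.1 ± 7.91 and Bur-0 highest at 154 ± 13.6, with group means between 104 and 115 in the other 5 accessions (SD, n = 3 each). Bur-0 minus Sha was 0.90 ± 0.12 (adjusted p = 1.66e-08), a pair in which 27.4% of probe sets differed. Each of these 2 also differed past the adjusted p from all other accessions. That value ran from 0.0250 for Bur-0 minus Fei-0 to 0.000606 for Fei-0 minus Sha. None of the other 5 differed from each other past it. Of all probe sets, 33.3% differed between Bay-0 and Bur-0 and 20.1% between Bay-0 and Sha.

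IAA30 had a smaller range at 0 h, 0.56 (adjusted p = 0.00311), from 5.21 ± 2.83 in Bay-0 to 15.1 ± 1.42 in Sha (SD, n = 3 each). Bay-0 minus Sha was -0.56 ± 0.13 (adjusted p = 0.000621), a pair in which 20.1% of probe sets differed. Both means lie under the pseudocount, and the test over all accessions did not pass with 64 added (adjusted p = 0.107). IAA20, IAA31, IAA33 and IAA34 did not pass the test at 0 h (adjusted p = 0.195, 0.138, 0.267 and 0.534).

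**Figure D5:**
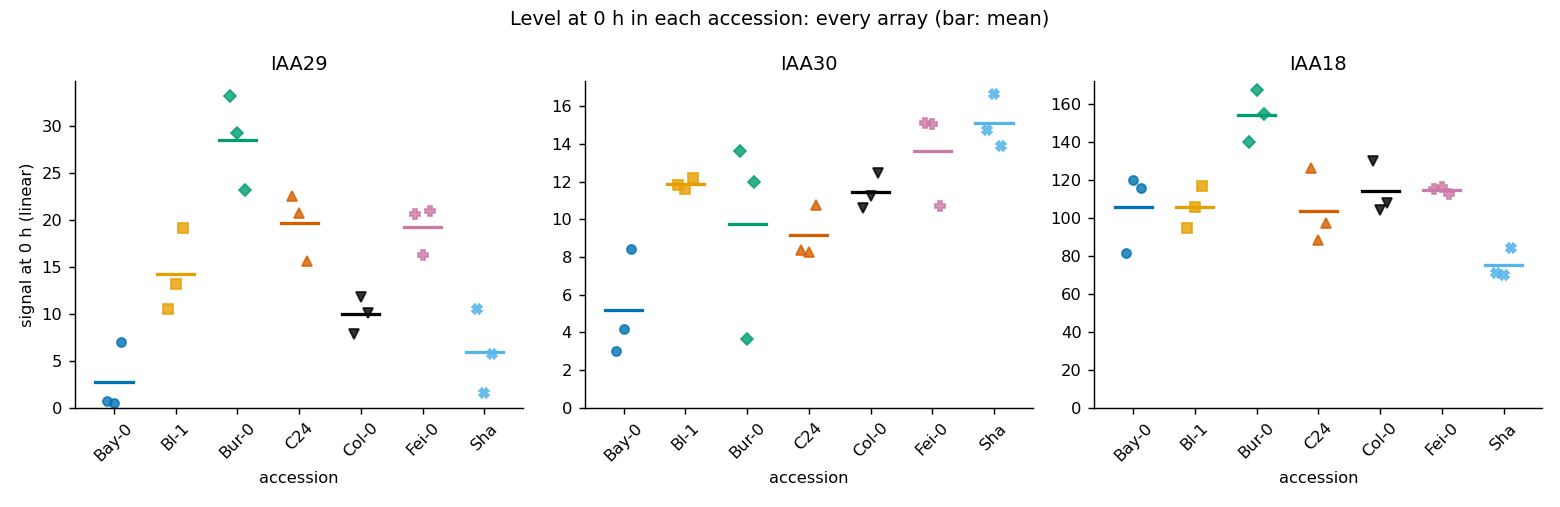
Signal at 0 h (y axes, linear scale) of IAA29, IAA30 and IAA18 on each of 3 arrays per accession (x axes), with a bar at the mean. Bay-0 is lowest for IAA29 (2.73) and IAA30 (5.21), Bur-0 is highest for IAA29 (28.5) and IAA18 (154), and Sha is highest for IAA30 (15.1) and lowest for IAA18 (75.1).

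Likeness between genes was described by Pearson's r of the log2 group means over the 28 groups, which share arrays and, for each accession, its 0 h samples. IAA29 and IAA30 had r = 0.91 with each other, and IAA20 had r = 0.65 with IAA29 and 0.54 with IAA33. IAA33 had r = 0.59 with IAA30, and IAA18, IAA31 and IAA34 had r between -0.30 and 0.28 with each other and with the rest of the 7. Outside the family the genes most like IAA29 were SAUR10 (AT2G18010; r = 0.92), AT1G65920 (0.89) and AT5G62280 (0.88). Those most like IAA30 were AT1G65920 (0.88), AT3G54000 (0.87) and AT3G50340 (0.87).

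For the dim genes the closest patterns were looser. IAA20 was most like AT5G04980 (r = 0.82), AT4G09890 (0.80) and the U-box ubiquitin ligase gene PUB26 (0.76), and IAA33 most like AT1G23340 (0.77), AT2G44830 (0.73) and AT3G15250 (0.71). IAA31 was most like AT4G21500 (r = 0.70), the transcription factor gene WRKY47 (0.70) and AT2G23450 (0.69), and IAA34 most like AT5G17950 (0.69), AT1G23200 (0.66) and AT1G35050 (0.58). IAA18 was most like AT5G62350 (r = 0.81), the aldehyde dehydrogenase gene ALDH3F1 (0.79) and AT3G14075 (0.77). AT1G65920 was named for both IAA29 and IAA30, and it changed by 1.15 ± 0.06, 1.28 ± 0.06 and 0.68 ± 0.06 at 30 min, 1 h and 3 h, with the last under 2-fold (limma adjusted p = 2.62e-24, 6.77e-27 and 4.03e-14). AT1G23340, the closest to IAA33, was higher by 0.61 ± 0.07 at 30 min, by 1.02 ± 0.07 at 1 h, past 2-fold, and stood at -0.07 ± 0.07 at 3 h (adjusted p = 2.09e-11, 1.25e-20 and 0.480).

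Other genes of the auxin pathway were taken from lists of its roles, as far as a probe set was listed with the gene alone. No name listed for other Aux/IAA genes with canonical domains, auxin response factors, receptors or TOPLESS co-repressors was matched, nor was IAA32, so these are not analysed here. Of 78 SAUR genes, many of which are induced early by auxin, 3 were matched. SAUR10, listed by its locus AT2G18010 and the gene most like IAA29, was called at each time, with a change of 2.30 ± 0.07, 2.29 ± 0.07 and 1.21 ± 0.07 at 30 min, 1 h and 3 h (limma adjusted p = 1.71e-39, 1.67e-39 and 5.33e-24). With a pseudocount of 64 its 3 h value was 0.56, under 2-fold, and from 1 h to 3 h it fell by 1.09 ± 0.07 (adjusted p = 1.89e-21). SAUR57 fell by 0.41 ± 0.07 at 1 h, under 2-fold, and SAUR58 was at 0.05 ± 0.06 (adjusted p = 4.16e-06 and 0.621). Among GH3 enzymes, which conjugate auxin to amino acids, 5 of those listed were measured and 3 were called higher at each time, GH3.3, WES1 and GH3.1, with a list median of 1.81, 2.16 and 2.45. Of the other two, GH3.17 fell by 0.36 ± 0.06 at 1 h, under 2-fold, and GH3.9 was at 0.05 ± 0.06 (limma adjusted p = 3.6e-06 and 0.596). From 1 h to 3 h these 3 changed by -0.14 ± 0.05, 0.19 ± 0.05 and 0.28 ± 0.07, where IAA29 and IAA30 fell by 0.84 and 0.71. A difference between the genes in this step was not tested.

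Both measured LBD factors of lateral root initiation, of 5 listed, were called at 30 min and 1 h, and LBD29 alone at 3 h. At 1 h LBD16 was higher by 1.75 ± 0.07 and LBD29 by 3.6 ± 0.07. LBD16 fell by 0.86 ± 0.07 from 1 h to 3 h. HAT2, the 1 measured class II HD-Zip gene of 8, was called higher against 0 h at each time, by 3.1 ± 0.05, 2.79 ± 0.05 and 1.36 ± 0.05, and fell by 1.44 ± 0.05 from 1 h to 3 h, past 2-fold. Of 4 measured biosynthesis genes of 16, the monooxygenase genes YUC2, YUC4 and YUC6 fell by 0.24 ± 0.05, 0.27 ± 0.06 and 0.50 ± 0.09 at 1 h past the adjusted p, none of them 2-fold, where 11.3% of all probe sets were lower past it. Their mean signals over all arrays were 22.1, 4.56 and 7.48, so YUC4 and YUC6 lay under the pseudocount of 16. Of 2 measured transport genes of 19, WAG2, a kinase acting on auxin carriers, was higher by 0.66 ± 0.05 at 1 h, under 2-fold, and PID2 was at 0.11 ± 0.06 (adjusted p = 0.185).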

How the data were processed

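The deposited table held signal intensity values on a linear scale, 1 per probe set and array. Per the submitters' processing notes, MAS5 and GCOS were used. Their versions are not known here. The trimmed mean of the deposited values, without the lowest and highest 2%, was 100.01 on every array. After leaving out 64 controls of 22810 probe sets, 22746 were tested, and 13513 of them carried a single gene in the probe annotation, while 503 carried more and 8730 carried no gene. Genes took the name of the probe annotation, with 3 SAUR genes of the lists matched by locus, and no coordinates or sequences were used.

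Values were taken as log2(signal + 16) and fitted with limma 3.58.1 (R 4.3.3), with 1 mean for each of 28 groups, 55 residual and 8.37 prior degrees of freedom and a trended prior. No low-signal filter was applied, because members of low signal had to be accounted for. Contrasts were the mean response over accessions, the response of each accession (21), the steps between times, F tests of differences between accessions, and the 21 pairs at 0 h. Tests were two-sided, with Benjamini-Hochberg adjustment over all probe sets in each contrast. The SE of a mean response reflects how arrays within groups scatter and leaves out the scatter of accessions. Whether replicates were separate cultures is not in the labels, and p-values therefore reflect the scatter of these samples alone, which may be technical. Precision is limited by how many arrays there are.

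The 7 members and the gene lists were chosen with earlier results of these data known. By rule the text names the 7 members, the 3 genes most like each by correlation, and the called or leading measured genes of each list. Alternatives were pseudocounts of 1 and 64, a filter on the dimmest 30% of probe sets, quantile normalization, the replicate number as a block, the mean without Bay-0 and each array left out in turn. The fits were checked on simulated data.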

Additional observations from a re-analysis of the deposited data

Results flagged for a closer look

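A difference between accessions in the response, by the F test, drew attention to 3 results. The IAA30 response at 1 h had a range of 0.754 over accessions (adjusted p = 0.0252), with Sha lowest and Bur-0 highest. The IAA30 response at 3 h had a range of 0.763 (adjusted p = 0.00415), and that of IAA29 at 3 h a range of 0.899 (adjusted p = 0.0391), both with Bl-1 lowest and C24 highest. The step of IAA30 from 1 h to 3 h, tested after its values were seen, differed by 0.846 (adjusted p = 0.00493), between Bur-0 and C24. All 4 ranges were under 2-fold. Of all probe sets, 14.8% passed the F test at any range at 1 h, 22% at 3 h and 5.52% for the step from 1 h to 3 h.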

How the results depend on the processing

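The pseudocount moved the results most. With 1 in place of 16, the members called were 2 at 3 h, 1 for the step from 1 h to 3 h, 2 for a difference in response at each of 30 min, 1 h and 3 h, and 4 for the level at 0 h, and IAA30 was called in 5 accessions at 3 h. With 64, the members called were 0, 1 and 0 at 30 min, 1 h and 3 h and 0 for the level at 0 h. IAA29 was then called in 2 accessions at 30 min and 1 at 3 h, and IAA30 in 0 at 30 min, 0 at 1 h and 0 at 3 h. Over all probe sets, 221, 268 and 256 were called higher and 54, 104 and 270 lower at 30 min, 1 h and 3 h with 1 added, 97, 129 and 111 higher and 19, 24 and 95 lower with 16, and 44, 51 and 47 higher and 5, 4 and 27 lower with 64. The steps gave 29 higher and 17 lower from 30 min to 1 h and 87 and 174 from 1 h to 3 h with 1, against 11 and 0, and 29 and 60, with 16, and 1 and 0, and 15 and 14, with 64. Differences in response gave 2262, 1715 and 2615 with 1, against 1541, 1242 and 1906 with 16 and 520, 410 and 707 with 64. Those in the step from 1 h to 3 h gave 683 with 1, 623 with 16 and 200 with 64. The level at 0 h gave 1571 with 64, 7056 with 1 and 3925 with 16. Leaving out Bay-0 gave 37 lower at 1 h, against 24.

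Values near 0 changed sign. SAUR58 at 3 h was at -0.0127 with a pseudocount of 1. IAA34 was at 0.00193 at 1 h with a pseudocount of 1 and at 0.0347 without Bay-0, and under quantile normalization at 0.000122 at 30 min and -0.00762 for the step from 30 min to 1 h. IAA31 from 1 h to 3 h was at 0.00299 under quantile normalization and 0.0043 without Bay-0. With single arrays left out, IAA34 ran from -0.0430 to 0.0159 at 30 min, from -0.0368 to 0.0205 at 1 h and from -0.0221 to 0.0361 for the step from 30 min to 1 h, and IAA31 from -0.0507 to 0.0194 for the step from 1 h to 3 h. The members called for a difference in response ran from 0 to 1 at 30 min (1 without Bur-0 30 min replicate 2) and from 0 to 1 at 3 h (1 without Bl-1 3 h replicate 1), and the accessions with IAA30 called at 3 h from 1 to 3.

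With the replicate number as a block, IAA29 and IAA30 were again called in 7 and 7 accessions at 1 h, and 16 of 16 counts were within 1.5 times of their value without it. Of the tests recomputed, the block changed the side of the threshold for 1, the step of IAA29 in Fei-0 between 1 h and 3 h (adjusted p = 0.0402 without the block and 0.0531 with it). Over 123 pairs of same-numbered arrays of an accession the deviations from group means correlated with a median r of 0.00627, over 0.1 in 13 pairs. Over 246 pairs with different numbers the median was -0.00446, over 0.1 in 11 pairs. Most pairs of either kind were under 0.1, and those over it were a larger share of the same-numbered pairs. These values do not decide whether the numbers pair samples. The main model did not take them to, and the block above gives the results if they do. With the filter on low values 4 of the 7 members were not tested. Another probe set per member was not tried, since each had 1. Signals under the pseudocount limit what can be said of IAA20, IAA31, IAA33 and IAA34.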
